A study of Mus musculus with 19 samples.

Results

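Transcripts of intraepithelial lymphocytes were followed through RNA sequencing of mouse small intestinal crypts by 9 listed genes, matched by symbol to the 55487 Ensembl gene identifiers of the deposited files. They are Cd3e, Cd3g, Cd8a, Itgae, Gzma, Gzmb, Ccl5, Cd7 and Ptprc. All 9 passed the filter on low counts, as did 17875 genes in all. There were 19 C57BL/6 mice, 1 library each: 5 Nt+/+ mice and 4 Nt-/- mice on standard chow ad libitum, and 5 mice of each genotype kept without food, but with water, for 48 hours. Nt encodes the gut peptide neurotensin, and Nt-/- mice lack it in the whole body. By the labels 12 mice were female, 6 were male and 1 had no sex given, and the study's methods give the age of mice used for fasting as 10 to 16 weeks. The labels do not say whether these mice also carried the Lgr5-EGFP-IRES-CreERT2 allele that the study used in other experiments.

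Intraepithelial lymphocytes are T cells that live between the epithelial cells of the gut, mostly along the villi. Many are CD8+ and hold granzymes ready for release, and many in the mouse small intestine carry a γδ T cell receptor and a CD8αα homodimer in place of CD8αβ. They are held there by the integrin αE, which binds E-cadherin on epithelial cells, and they depend on epithelial signals such as interleukin 15. The crypts were shaken from EDTA-treated fragments of the proximal small intestine and strained, and their RNA was taken without sorting, so lymphocytes attached to the epithelium can be carried along.

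Library totals ran from 9059457 to 35068711 expected counts (median, 18541819). The targeted gene Nts lay between 4.98 and 8.59 CPM (counts relative to the TMM-scaled library total) in Nt+/+ mice and between 0.144 and 0.793 CPM in Nt-/- mice. Replicate 5 of the fasted Nt+/+ mice is called Nt+/+ by its title and Nt-/- by another label. Its Nts level of 5.43 CPM lies within the Nt+/+ range, and it was kept with its title. In replicate 1 of the ad libitum-fed Nt+/+ mice 1 ribosomal RNA gene took 11.5% of all counts.

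Epithelial genes were far more abundant than T cell genes, all 9 of which were detected in every mouse. Per transcript length, Epcam averaged 681 TPM (the authors' length-scaled values) and Cdh1, which encodes E-cadherin, averaged 268 TPM over the 19 mice. The 9 lymphocyte genes averaged 6.11 to 61.3 TPM. Gzma was the highest of them at 61.3 TPM, above 91.1% of the genes tested, followed by Ccl5 at 44.9 TPM. Gzmb averaged 13.3, Cd7 12.4, Ptprc 12.4, Cd3e 10.6, Cd3g 9.27, Cd8a 7.44 and Itgae 6.11 TPM. Among these 7 genes the mean TPM differed by less than the spread over mice, which for Cd3e alone ran from 2.66 to 23.3 TPM.

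Genes that separate kinds of T cells were unequal on the same TPM scale. Cd8a was far above Cd8b1, the chain that pairs with it in CD8αβ, which averaged 0.709 TPM, and above the helper T cell coreceptor gene Cd4 at 0.558 TPM. Both the constant gene of the α receptor chain, Trac, at 4.01 TPM and that of the δ chain, Trdc, at 1.72 TPM were present. Of single markers of other cells that could be carried along, the B cell gene Cd79a averaged 1.26 TPM, the plasma cell gene Jchain 2.60, the endothelial gene Pecam1 0.797, the collagen gene Col1a1 0.104 and the macrophage gene Adgre1 0.0474 TPM. Other genes of the same lists had CPM values as high as those of Cd3e. CPM is not scaled for transcript length, so these values do not compare the genes per length. The antibody gene Igha, picked after its values were seen, had group means of 16.9 to 22.2 CPM, and Itgam, an integrin gene of myeloid cells, 10.7 to 21.6 CPM, where Cd3e had 8.99 to 15.1 CPM. In bulk tissue, fewer lymphocytes and less of a transcript in each lymphocyte cannot be told apart.

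The upstream sequences of 3 of these genes are shown: Gzma was called higher in fasted mice, Gzmb, a granzyme too, was not called, and Cd3e stands for the receptor. The difference between their responses was not tested. They are the 250 bases before the RefSeq start (GRCm38.p6, 5′ to 3′ on the gene's strand), at chr13:113100982-113101231 (minus strand), chr14:56262335-56262584 (minus strand) and chr9:45009612-45009861 (minus strand). Capitals mark TGTGGT (RUNX), AGGAAG (ETS) or TGANTCA (AP-1), searched on both strands, with no overlap between marked matches.
Gzma: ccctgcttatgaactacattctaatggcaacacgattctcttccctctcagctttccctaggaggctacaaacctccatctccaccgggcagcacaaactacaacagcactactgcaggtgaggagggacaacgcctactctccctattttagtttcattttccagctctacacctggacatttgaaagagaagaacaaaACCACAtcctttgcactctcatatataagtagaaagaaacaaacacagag
Gzmb: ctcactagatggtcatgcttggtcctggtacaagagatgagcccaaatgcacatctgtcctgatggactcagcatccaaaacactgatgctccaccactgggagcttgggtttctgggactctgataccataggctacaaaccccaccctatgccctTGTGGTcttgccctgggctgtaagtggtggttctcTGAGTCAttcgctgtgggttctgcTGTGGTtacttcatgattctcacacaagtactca
Cd3e: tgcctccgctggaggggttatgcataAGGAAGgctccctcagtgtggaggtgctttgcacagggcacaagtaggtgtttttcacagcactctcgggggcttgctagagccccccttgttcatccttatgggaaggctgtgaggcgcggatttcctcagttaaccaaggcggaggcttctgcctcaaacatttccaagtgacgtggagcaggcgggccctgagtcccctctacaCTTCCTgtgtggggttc

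Gzma held 1 RUNX match, 50 bases before the start and on the opposite strand, where it reads ACCACA. Gzmb held RUNX matches 93 and 34 bases before the start with an AP-1 match between them, at 58. Cd3e held ETS matches at 224 and, on the opposite strand, at 17. Such letters are common: of 32851 RefSeq promoters of the same table, 14.0% held the RUNX letters, 29.5% the ETS letters and 6.7% the AP-1 letters in the same window. The RefSeq start of Gzmb differs from its transcript start in the GENCODE annotation. The Cd3e window, which reaches down to 45009612, overlaps the annotated gene, which extends to 45009627. Its match at 17 therefore falls partly inside that gene.

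Cd3e and Cd3g, neighbours on chromosome 9 (44998740 to 45009627 and 44969572 to 44980431, minus strand, GRCm38), encode 2 chains of the CD3 complex that carries the T cell receptor's signal. Cd3e measured 4.13, 13.0, 8.79, 15.6 and 6.81 CPM (Nt+/+) and 12.0, 9.09, 5.63 and 9.21 CPM (Nt-/-) in the ad libitum groups. The fasted groups measured 6.08, 12.1, 14.7, 25.8 and 8.45 CPM (Nt+/+) and 11.1, 15.5, 19.4, 14.3 and 15.4 CPM (Nt-/-). The Nt+/+ groups overlapped almost entirely, with the highest and lowest fasted mice more than 4-fold apart, whereas among Nt-/- mice only the lowest fasted mouse fell within the ad libitum-fed range. Group means were 9.66 ± 4.63 and 13.4 ± 7.67 CPM in Nt+/+ mice (SD, n = 5 and 5) and 8.99 ± 2.62 and 15.1 ± 2.98 CPM in Nt-/- mice (SD, n = 4 and 5).

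The log2 difference of Cd3e, fasted minus ad libitum-fed, was 0.48 (SE, 0.34; adjusted p = 0.355) in Nt+/+ mice and 0.74 (SE, 0.37; adjusted p = 0.152) in Nt-/- mice by edgeR's quasi-likelihood test. As the mean of both genotypes it was 0.61 (SE, 0.25; adjusted p = 0.0611). Cd3g followed Cd3e closely, from 2.59 to 11.6 CPM in ad libitum-fed and from 3.42 to 16.7 CPM in fasted mice, with a mean log2 difference of 0.57 (SE, 0.26; adjusted p = 0.0874). Neither CD3 gene passed the test in any of these 3 comparisons in this fit. In other fits Cd3e was called as the mean of genotypes, by DESeq2 (adjusted p = 0.0382) and with the title number as a block (adjusted p = 0.0372). With only the groups compared in the fit, both were called in Nt-/- mice (adjusted p = 0.0191 for Cd3e and 0.00806 for Cd3g).

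**Figure D1:**
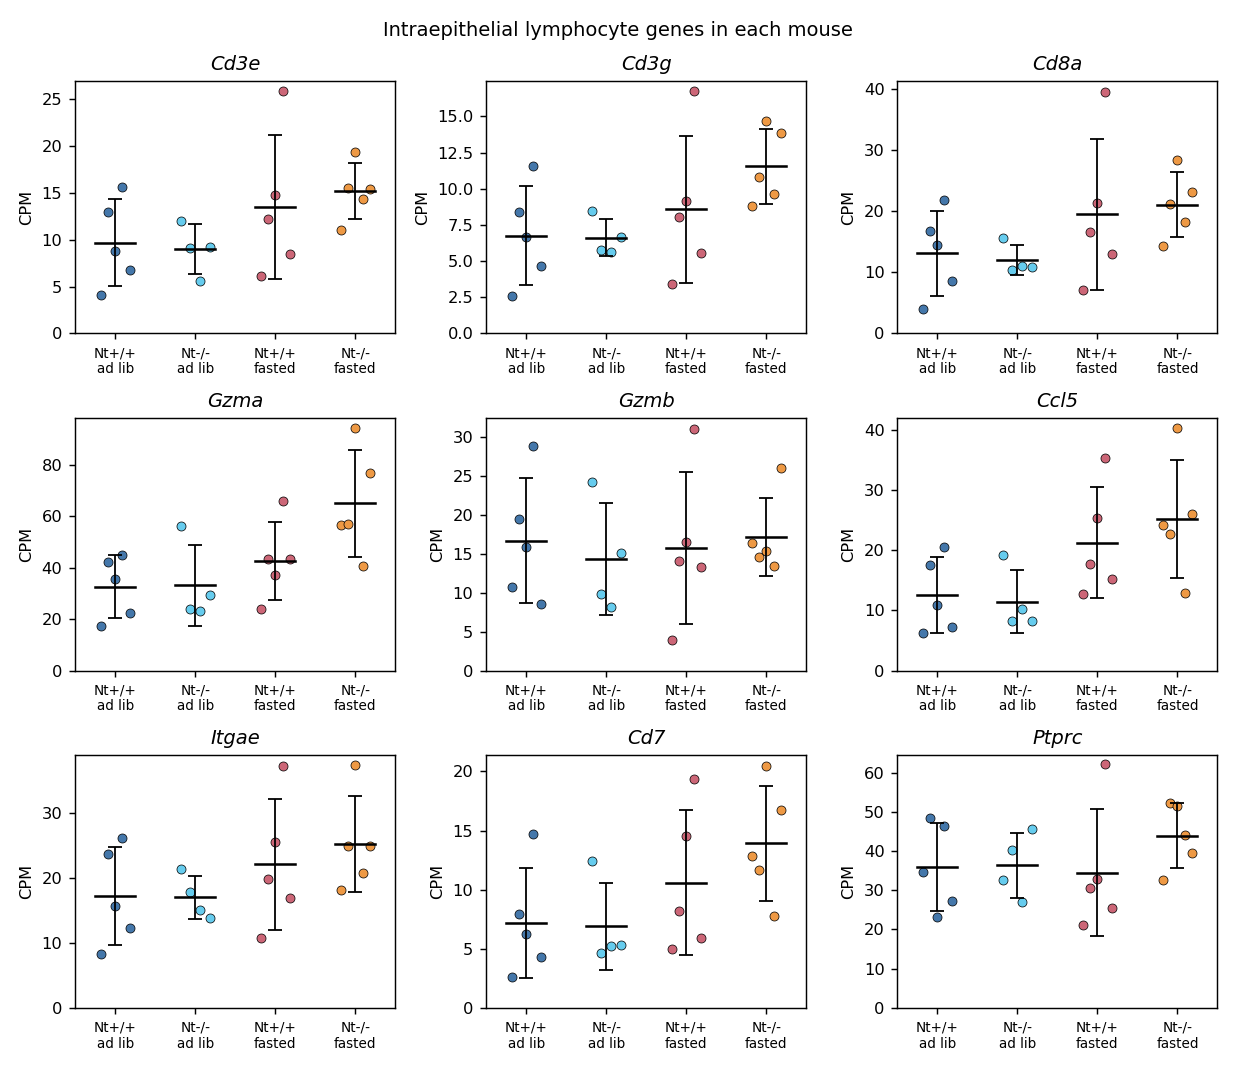
CPM of the 9 intraepithelial lymphocyte genes in each mouse, by genotype and diet; each point is 1 mouse, the horizontal line is the group mean and the bars are 1 SD. The fasted Nt-/- mice (rightmost) lie highest on average for all 9 genes, while single mice of every group overlap with those of another.

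Cd8a (chromosome 6, 71373427 to 71379173), which encodes the α chain of the CD8 coreceptor, behaved like the CD3 genes. It ranged from 3.98 to 21.8 CPM in the 9 ad libitum-fed mice and from 7.13 to 39.5 CPM in the 10 fasted mice, with medians of 11.03 and 19.7 CPM. Its mean log2 difference of 0.69 (SE, 0.28) did not pass the test (adjusted p = 0.0588), nor did the difference in Nt+/+ (0.57; adjusted p = 0.315) or Nt-/- mice (0.81; adjusted p = 0.167). It was called as the mean with the title number as a block (adjusted p = 0.0450) and in Nt-/- mice with only the groups compared in the fit (adjusted p = 0.00821). For comparison, Cd4 rose by 0.88 as the mean of both genotypes (adjusted p = 0.0168), from a median of 0.586 to 1.41 CPM, and Cd8b1 differed by 0.14 (adjusted p = 0.766).

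Itgae (chromosome 11, 73090583 to 73147446) encodes the αE integrin chain that binds E-cadherin. It ranged from 8.30 to 26.1 CPM in ad libitum-fed mice and from 10.8 to 37.4 CPM in fasted mice, with a mean log2 difference of 0.46 (SE, 0.22; adjusted p = 0.106). The gene Haspin overlaps Itgae on the other strand with up to 768 counts in a mouse. The strand setting of the counting is not given, so reads of the pair may not be fully told apart. Cd3e, Cd7 and Ptprc also overlap other genes, which had at most 16, 28 and 101 counts in a mouse. These lie on both strands for Cd3e, on the other strand for Cd7 and on the same strand for Ptprc. Whether exons overlap was not examined for any of the 4.

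Gzma (chromosome 13, 113093825 to 113100981), a tryptase of cytotoxic granules, was the more abundant of the granzymes. It measured 17.4, 42.3, 35.7, 45.1 and 22.4 CPM in ad libitum-fed Nt+/+ mice and 56.4, 23.9, 23.1 and 29.5 CPM in ad libitum-fed Nt-/- mice. Fasted Nt+/+ mice had 24.1, 43.3, 37.1, 65.96 and 43.2 CPM, and fasted Nt-/- mice 56.5, 56.8, 94.3, 40.7 and 76.7 CPM. Among Nt-/- mice all fasted values but the 40.7 CPM of replicate 4 lay above every ad libitum-fed value, the nearest being the 56.4 CPM of replicate 1. In Nt+/+ mice the groups overlapped.

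Gzma rose 1.95-fold with fasting in Nt-/- mice (log2, 0.97; SE, 0.33; adjusted p = 0.0356) and 1.60-fold as the mean of both genotypes (log2, 0.68; SE, 0.22; adjusted p = 0.0201). With the file-name number, which links mice of different groups, as a block, it was not called in Nt-/- mice (0.88; adjusted p = 0.0774) and was called as the mean (adjusted p = 0.0424). In Nt+/+ mice the log2 difference was 0.39 (SE, 0.30; adjusted p = 0.394). The difference between the genotypes in this response was 0.57 (95% interval, -0.37 to 1.52; adjusted p = 1.00), so the responses were not shown to differ.

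Gzmb (chromosome 14, 56258838 to 56262260), the caspase-activating granzyme, was not called with fasting. Ad libitum-fed mice had 10.7, 19.5, 15.9, 28.9 and 8.55 CPM (Nt+/+) and 24.2, 9.80, 8.19 and 15.1 CPM (Nt-/-). Fasted mice had 3.88, 14.1, 16.5, 31.1 and 13.3 CPM (Nt+/+) and 16.4, 14.6, 15.4, 13.4 and 26.0 CPM (Nt-/-). The fasted and ad libitum-fed mice overlapped through nearly the whole range, with medians of 15.04 and 15.07 CPM. The mean log2 difference was 0.09, with a 95% interval of -0.54 to 0.72 (adjusted p = 0.839), which does not exclude a rise of the size seen for Gzma. Related granzyme genes lie beside Gzmb, and RSEM divides reads that match more than 1 of them.

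Ccl5 (chromosome 11, 83525778 to 83530518), which encodes a chemokine made by activated and memory CD8+ T cells, showed the largest rise of the 9. It measured 6.24, 17.6, 10.9, 20.6 and 7.25 CPM in ad libitum-fed Nt+/+ mice and 19.1, 8.28, 10.2 and 8.203 CPM in ad libitum-fed Nt-/- mice. With fasting it measured 12.6, 17.7, 25.3, 35.3 and 15.2 CPM in Nt+/+ mice and 24.1, 22.7, 40.2, 12.8 and 26.0 CPM in Nt-/- mice. No fasted mouse fell below 12.6 CPM, whereas 6 of the 9 ad libitum-fed mice did, and in Nt-/- mice only fasted replicate 4 lay within the ad libitum-fed range.

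Ccl5 rose 2.19-fold in Nt-/- mice (log2, 1.13; SE, 0.38; adjusted p = 0.0369) and 1.93-fold as the mean of both genotypes (log2, 0.95; SE, 0.26; adjusted p = 0.00703). With the file-name number as a block it was not called in Nt-/- mice (1.05; adjusted p = 0.0540) and was called as the mean (adjusted p = 0.0119). In Nt+/+ mice the log2 difference was 0.76 (SE, 0.36), with an adjusted p of 0.138. The difference between genotypes in the response was 0.37 (95% interval, -0.74 to 1.47).

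Cd7 (chromosome 11, 121036747 to 121039418), an immunoglobulin-family surface protein of T and NK cells, came close to the threshold. It ranged from 2.59 to 14.7 CPM in ad libitum-fed and from 4.98 to 20.5 CPM in fasted mice, with medians of 5.27 and 12.3 CPM. Its log2 difference was 0.57 (adjusted p = 0.378) in Nt+/+ mice, 1.00 (adjusted p = 0.119) in Nt-/- mice and 0.79 (SE, 0.31; adjusted p = 0.0525) as the mean of both. It was called as the mean with no filter on low counts (adjusted p = 0.0493) and with a filter of 10 counts in every mouse (adjusted p = 0.0477), and in Nt-/- mice with only the groups compared in the fit (adjusted p = 0.0380).

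Ptprc (chromosome 1, 138062861 to 138175708) encodes CD45, the tyrosine phosphatase of all leukocytes, and is therefore the least particular to T cells. It measured 34.6, 48.4, 23.1, 46.4 and 27.2 CPM in ad libitum-fed Nt+/+ mice and 32.7, 40.2, 27.0 and 45.7 CPM in ad libitum-fed Nt-/- mice. Fasted mice had 21.1, 30.5, 32.8, 62.3 and 25.5 CPM (Nt+/+) and 32.5, 52.4, 51.5, 44.1 and 39.6 CPM (Nt-/-). Apart from the 62.3 CPM of fasted Nt+/+ replicate 4, fasted Nt+/+ mice lay at or below 32.8 CPM, under the ad libitum-fed median of 34.6 CPM. The mean log2 difference of Ptprc was 0.10 (SE, 0.18; 95% interval, -0.29 to 0.50; adjusted p = 0.689).

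**Figure D2:**
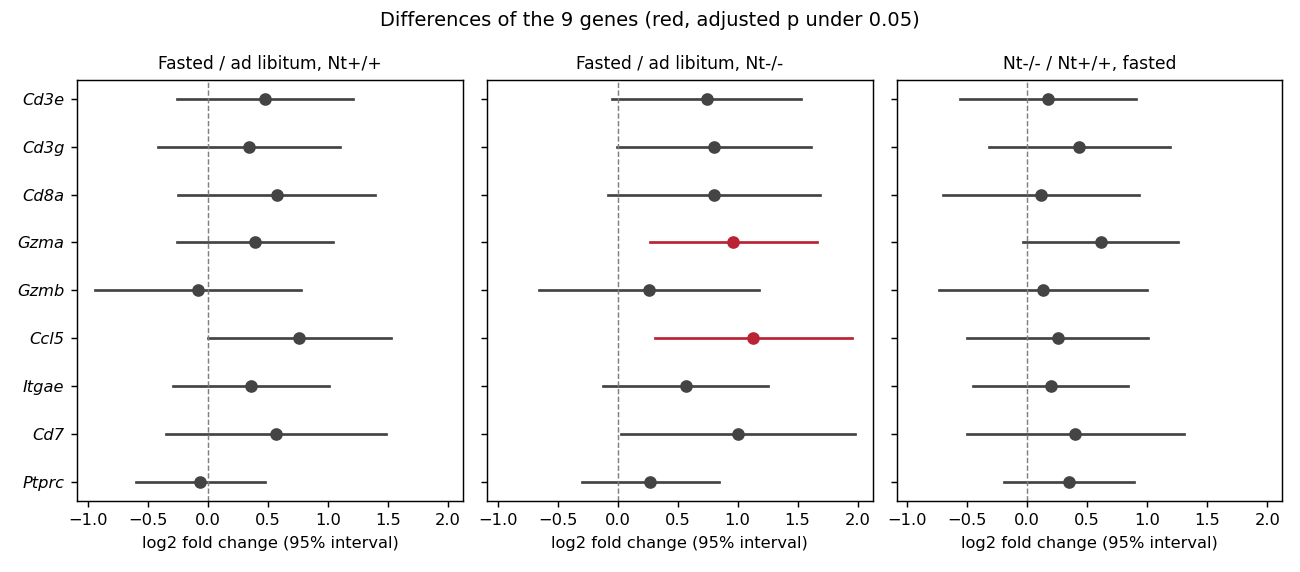
log2 fold changes of the 9 genes with their 95% intervals for the effect of fasting by genotype and for Nt-/- against Nt+/+ mice when fasted; red points passed an adjusted p of 0.05 in edgeR's test. Gzma (0.97) and Ccl5 (1.13) in Nt-/- mice are the only red points, neither of which was called with the file-name number as a block, and every interval of the right panel includes 0.

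Counted together, 0 or 2 of the 9 genes were called with fasting in each comparison, and differences among their responses were not tested. In Nt+/+ mice 0 of 9 were called, against 21.6% of all genes tested (11.2% higher, 10.4% lower), and 1 (Ccl5) passed without adjustment, against 34.1%. DESeq2 called 0 of 9 in Nt+/+ mice as well. In Nt-/- mice 2 of 9 were called, both higher, where 25.2% of all genes were called and 12.5% were called higher, and 4 of 9 passed unadjusted, against 36.5%. As the mean of both genotypes 2 of 9 were called, again Gzma and Ccl5, against 39.4% of all genes (19.2% called higher), and 6 of 9 passed unadjusted, against 47.4%. These shares of called members are near or below those of all genes. The median log2 difference of the 9 was 0.39 in Nt+/+ mice, 0.80 in Nt-/- mice and 0.61 as the mean, where the medians of all genes tested were -0.01, -0.02 and -0.02.

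The calls in Nt-/- mice depended on the model and on single mice. With the file-name number as a block, 0 of 9 were called in Nt-/- mice, where 31.7% of all genes were. Without ad libitum-fed Nt-/- replicate 2, 3 or 4, or fasted Nt-/- replicate 3 or 5, neither was called in Nt-/- mice, with adjusted p-values of up to 0.115 for Gzma and 0.109 for Ccl5. As the mean of genotypes both were called without any 1 of the 19 mice (adjusted p at most 0.0483 and 0.0179).

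Within mice that share a file-name number and a genotype, 9 fasted and ad libitum-fed pairs could be formed. Gzma, Ccl5 and Cd7 were above their partner in 9 of 9 fasted mice, Cd3g in 8, Cd3e, Cd8a and Itgae in 7, Gzmb in 6 and Ptprc in 4. Some of these differences were very small, down to 0.0044 log2 for Gzma, 0.0082 for Ccl5 and 0.048 for Cd7. The share of all genes higher in 9 of 9 pairs was not computed. The median log2 difference over the pairs was 1.02 for Ccl5, 0.55 for Gzma, 0.11 for Gzmb and -0.01 for Ptprc. Averaged over its mice, number 1 lay lowest (median deviation of the 9 genes from their group means, -0.35 log2 CPM) and number 4 highest (0.30). All 9 averaged below their group means in number 1 (-0.71 to -0.16 log2 CPM). The genotypes did not go together. In number 1 the Nt+/+ mice were lowest of their groups for 7 (ad libitum-fed) and 9 genes (fasted), but the ad libitum-fed Nt-/- mouse was highest for 8. In number 4 the Nt+/+ mice were highest for 8 (ad libitum-fed) and 9 genes (fasted). Its Nt-/- mice were lowest for 5 (ad libitum-fed) and 4 (fasted). No member was called among the numbers (0 of 9 at either an adjusted or an unadjusted p of 0.05, where 15.3% and 38.7% of all genes passed), but Cd8a and Itgae were called without ad libitum-fed Nt-/- replicate 1. Between the sexes 0 of 9 were called as well (0 unadjusted), where 0.0789% and 10.4% of all genes were, and sex follows the number.

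Loss of Nt was not accompanied by a detected change in any of the 9 genes. In ad libitum-fed mice the log2 differences, Nt-/- minus Nt+/+, lay between -0.21 and 0.04. Of the 9, 2 were above 0, where 49.6% of all genes were (8 of 9 with the file-name number as a block). There 0 were called, against 0.00559% of all genes, and 0 had an unadjusted p under 0.05, against 1.67%. In fasted mice all 9 differences were above 0, where 47.3% of all genes were, from 0.11 for Cd8a to 0.61 for Gzma. Of these 0 were called (background, 0.00559%) and 0 passed unadjusted (background, 9.14%). The signs were not stable: under the alternative fits Cd8a, Cd3e and Gzmb went down to -0.10, -0.071 and -0.098, and without 1 mouse to -0.10, -0.015 and -0.12. Gzma came nearest, with group means of 42.8 ± 15.2 and 65.02 ± 20.7 CPM (SD, n = 5 and 5). The SE of its log2 difference was 0.30 and the adjusted p was 0.571. As the mean of both diets 0 of 9 were called (background, 0.0224%) and 0 passed unadjusted (background, 6.77%). DESeq2 called 0 of 9 in each of these comparisons and in the interaction.

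The interaction, fasting response in Nt-/- minus that in Nt+/+ mice, was above 0 for all 9 genes, where 48% of all genes were. It ran from 0.21 for Itgae to 0.57 for Gzma, but Cd8a reached -0.030 and Cd7 -0.0067 without 1 mouse. The 9 genes vary together between mice, so their equal signs are not independent of each other. None of the 9 passed, and 0% of all genes did (0 of 9 and 2.71% of all genes unadjusted). The 95% intervals of the interaction reached at least 1.12 for every gene, so differences of about 2-fold between genotypes are not excluded. The fasting comparisons and the genotype comparisons share groups, and the directions of their members are therefore not independent of each other.

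Median ratios between some of the genes also differed between the diets. Gzmb per Cd3e, a ratio of CPM, was 1.08 to 2.60 (median, 1.64) in ad libitum-fed mice and 0.638 to 1.69 (median, 1.14) in fasted mice. Gzmb per Ccl5 had medians of 1.27 and 0.741 and ranges of 0.806 to 1.84 and 0.307 to 1.05. Ccl5 per Cd3e moved the other way, from a median of 1.32 to 1.70, and Cd3g per Cd3e, from 2 subunits of 1 complex, had medians of 0.701 and 0.669. Ptprc per Cd3e had medians of 3.99 and 2.80. The diets overlapped in each of these 5 ratios, which were described and not tested.

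**Figure D3:**
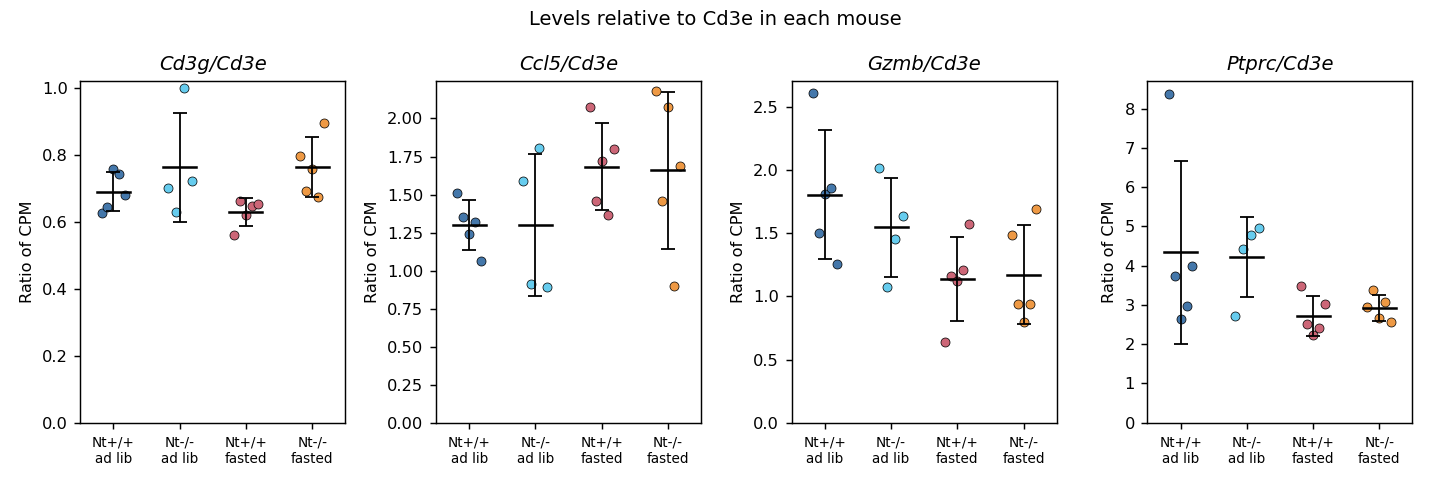
Ratios of CPM to Cd3e in each mouse for Cd3g, Ccl5, Gzmb and Ptprc by genotype and diet; points are mice, lines are group means and bars are 1 SD. Cd3g per Cd3e stays near 0.7 in all groups, while Gzmb per Cd3e is centred at 1.64 in ad libitum-fed and 1.14 in fasted mice.

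The spread between mice was largely common to the T cell genes. Fasted Nt+/+ replicate 4 was the highest of its group for 9 of 9 genes and replicate 1 the lowest for 9 of 9. Ad libitum-fed Nt+/+ replicate 4 and Nt-/- replicate 1 were each the highest of their groups for 8 of 9, and fasted Nt-/- replicate 3 for 7. After subtraction of group means, Pearson's r of log2 CPM over the 19 mice was 0.74 to 0.99 for the 28 pairs of genes without Ptprc (median, 0.86) and 0.46 to 0.75 for the 8 pairs with it (median, 0.61). The points share library and depth, and r is given as a description.

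**Figure D4:**
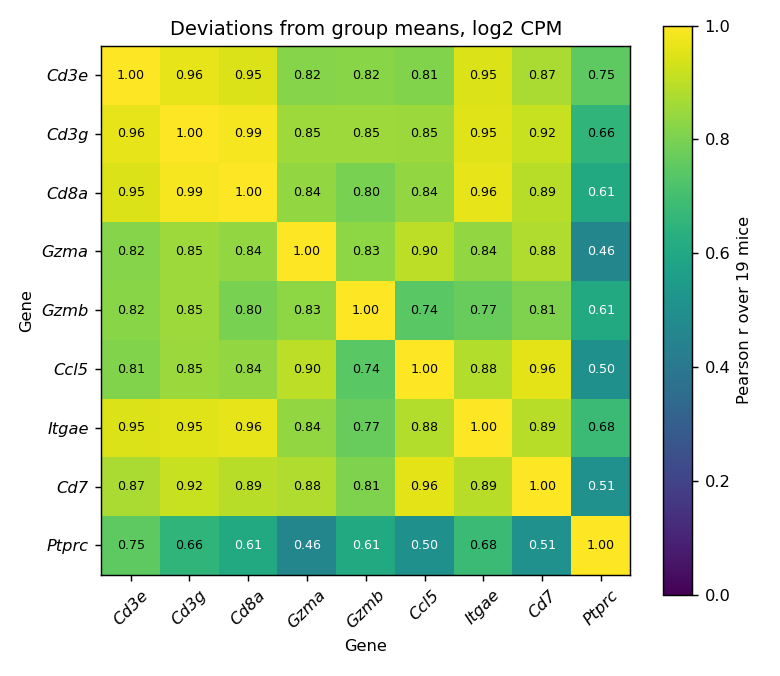
Pearson's r over 19 mice between the 9 genes, computed on log2 CPM after subtraction of each group's mean. Cd3e, Cd3g, Cd8a and Itgae form the tightest set (r at least 0.949), and the row of Ptprc is the lowest (0.46 to 0.75).

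Outside the 9, the genes most like their mean profile over the 19 mice were Lck, the kinase that starts T cell receptor signaling (r = 0.98), Glp1r, the receptor of glucagon-like peptide 1 (r = 0.98), Tcrg-C2 and Tcrg-C1, constant genes of the γ receptor chain (r = 0.97 and 0.96), and Nkg7, a protein of cytotoxic granules (r = 0.96). With group means removed the leading 5 were Glp1r (0.97), Lck (0.97), the adaptor Lcp2 (0.97), the kinase Zap70 (0.96) and the myosin Myo1f (0.96). Glp1r averaged 4.08 CPM and Lck 6.63 CPM.

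Other T cell genes were compared in the same fit. The 8 lists of T cell and cytotoxic lymphocyte genes were chosen with earlier results of these data known. With the 9 removed, 81 of 90 genes were tested. As the mean of both genotypes 28 were called higher and 3 lower (all genes tested, 19.2% higher and 20.2% lower). These counts were not tested against the shares of all genes and are no independent support. In Nt+/+ mice 3 were called higher and 1 lower (8 higher with the file-name number as a block), where 11.2% of all genes were called higher, and in Nt-/- mice 9 were called higher and 0 lower, where 12.5% were called higher. The median log2 difference of the 81 was 0.34 in Nt+/+ mice, 0.55 in Nt-/- mice and 0.43 as the mean. In the last, 73 of 81 were above 0, where 47.9% of all genes were. Some genes of these lists, transcription factors above all, are also used by epithelial cells. Without fasted Nt+/+ replicate 4 the count called higher was 15, and without ad libitum-fed Nt-/- replicate 3 it was 17.

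For single lists, genes that rose or fell are those called higher or lower as the mean of both genotypes. Of all genes, 19.2% were called higher and 20.2% lower. The counts in single lists are small and were not tested against these shares. Of the receptor list (11 genes, Cd3e and Cd3g included), 3 rose as the mean of both genotypes: Cd247, the ζ chain, by 0.99 (adjusted p = 0.00100), Tcrg-C2 by 0.81 and Trdc by 0.66. Cd247 rose in each genotype (0.98 in Nt+/+, adjusted p = 0.0194; 1.00 in Nt-/-, adjusted p = 0.0243). Of 9 tested coreceptor and pan-T surface genes 3 rose: Thy1 (0.73), Cd4 (0.88) and Cd6 (0.71). Of 13 genes of receptor signaling 4 rose, among them the kinases Txk (0.97) and Fyn (0.45) and the adaptor Lcp2 (0.85).

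In the cytotoxic list of 12 tested genes 4 rose (all genes, 19.2%). Gzma and Ccl5 were among them, with Srgn, the core protein of granule proteoglycans (0.75, adjusted p = 0.0190). Tnf, an inflammatory cytokine made by many cell types, fell by 1.42 (adjusted p = 0.00136). Of 10 tested receptors shared with NK cells 4 rose, with Klrb1c (1.41), Klrk1 (1.04) and Crtam (0.78) leading. In the list of homing and residence genes (16 tested) 4 rose, among them Cd96 (0.93) and the gut-homing receptor Ccr9 (0.50), and S1pr1, the receptor by which lymphocytes leave tissue, fell by 1.21 (adjusted p = 0.0323).

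Cytokine receptor genes rose in 3 of 8 cases (all genes, 19.2%): Il18rap by 1.27, Il7r by 0.89 and Il2rb, which also serves interleukin 15, by 0.72. Il7r was low, with group means of 0.794 to 1.87 CPM. Of 11 tested transcription factors of these cells 5 rose and 1 fell, led by Tcf7 (0.58), Ets1 (0.54) and Tbx21 (1.01), the gene of T-bet. Tbx21 was low, with group means of 0.638 to 1.63 CPM. The study measured Tcf7 in crypts by qPCR as an effector of WNT/β-catenin signaling. In bulk tissue, lymphocyte and epithelial transcripts of such a gene cannot be told apart. In the comparisons of genotype 0 of the 81 were called in either diet or as the mean, and 0 in the interaction.

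Among epithelial genes that act on these lymphocytes, Ccl25 and Il15 rose with fasting as the mean of both genotypes. Ccl25, the chemokine read by Ccr9, rose by 0.46 in Nt+/+ (adjusted p = 0.000208) and 0.44 in Nt-/- mice (adjusted p = 0.000448), from 244 to 336 CPM in ad libitum-fed mice to 363 to 449 CPM in fasted mice, with no overlap. The level of Il15 went from a median of 7.40 to 11.4 CPM, a mean log2 rise of 0.55 (adjusted p = 0.00493), with 0.32 in Nt+/+ (adjusted p = 0.268) and 0.78 in Nt-/- mice (adjusted p = 0.0106). Of 15 tested genes of this list 6 rose and 1 fell as the mean (all genes, 19.2% and 20.2%). Il22ra1, a receptor chain for interleukin 22, was at 0.48 and Tnfrsf14 at -0.64. Cdh1, the ligand of the integrin encoded by Itgae, had medians of 1038 and 1041 CPM.

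Markers of villus epithelium moved with the same comparison. All 12 villus enterocyte genes rose as the mean of both genotypes, 8 in Nt+/+ and 11 in Nt-/- mice, with a median log2 difference of 0.92 and the fatty acid-binding gene Fabp1 at 2.07. Of all genes, 19.2%, 11.2% and 12.5% were called higher in these comparisons. Their summed level was 6582 to 13772 CPM in ad libitum-fed Nt+/+, 9905 to 14746 in ad libitum-fed Nt-/-, 13059 to 25197 in fasted Nt+/+ and 22029 to 30931 in fasted Nt-/- mice, and none of the 12 was at 0 in every mouse. The stem cell gene Lgr5 had medians of 29.5 and 33.6 CPM, while 5 of 9 genes of the crypt list, Top2a (-0.70) first, fell (all genes, 20.2%). Over the 19 mice log2 CPM of Cd3e and of the summed villus genes had Pearson's r of 0.80 and Spearman's rho of 0.78, and 0.83 and 0.78 after subtraction of group means (r, 0.70 without the 2 mice farthest from the median). The corresponding r with group means removed was -0.33 for crypt genes and -0.13 for general epithelial genes. In bulk tissue, more villus cells and more of these transcripts in each cell cannot be told apart. The part of villus content in the differences of the 9 genes was not tested.

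**Figure D5:**
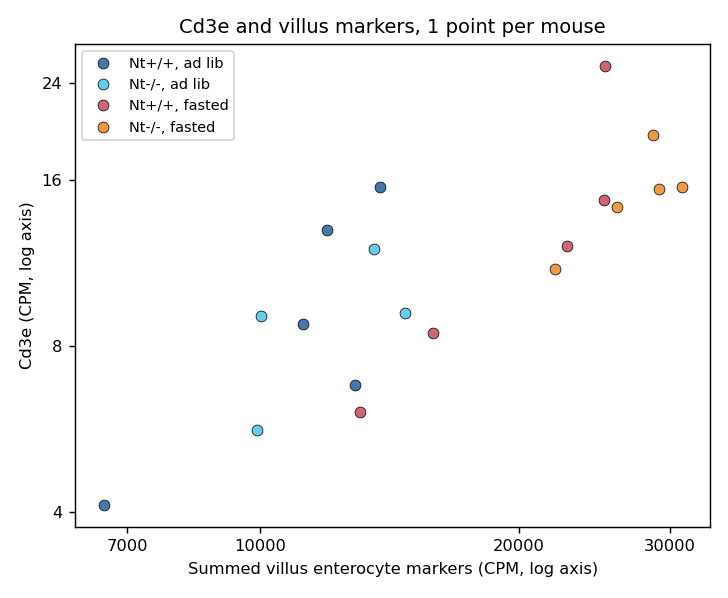
Cd3e against the summed level of 12 villus enterocyte genes in each of the 19 mice (CPM, both axes logarithmic), coloured by group. Cd3e is higher where villus genes are higher, both across all mice (r = 0.80) and within groups (r = 0.83 after subtraction of group means).

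Of the B cell, myeloid, stromal and endothelial genes tested, 0 were called higher in fasted mice. Of all genes, 19.2% were called higher and 20.2% lower as the mean of both genotypes. With 4 to 10 genes tested in each list, the counts do not show a difference from the T cell genes. The 10 tested B and plasma cell genes had a median log2 difference of -0.54 as the mean of both genotypes, 1 of them, Cd22, called lower (-1.24; adjusted p = 0.0357) and 0 higher. The summed level of all 12 listed genes, tested or not, ranged from 22.5 to 115 CPM in ad libitum-fed and from 18.4 to 113 CPM in fasted mice. Of 6 tested myeloid genes 0 rose and 2 fell, with Itgam at -0.69, and the sum of all 14 listed genes ran from 22.0 to 37.6 CPM in ad libitum-fed and from 19.4 to 27.5 CPM in fasted mice. Of 8 stromal genes and 4 endothelial genes 0 were called, with sums, over all 11 and 7 listed genes, of 2.95 to 12.1 and 5.74 to 8.79 CPM over all mice.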

How the data were processed

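RNA from crypts of 19 mice was sequenced by the authors as ribosomal RNA-depleted, single-end libraries. Per the study's methods and the submitters' processing notes, reads were trimmed with Trimmomatic 0.39 and assigned with RSEM to Ensembl transcripts of GRCm38 (release 100). The RSEM version and strand setting are not given in the sources used here. The deposited files hold RSEM's expected counts, not normalized, and TPM, scaled by the authors for transcript length. TPM was used only to compare levels between genes.

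Expected counts were rounded, scaled by TMM, and tested with edgeR 4.0.16 (R 4.3.3): filterByExpr, 4 group coefficients, quasi-likelihood test, Benjamini-Hochberg adjustment over all genes tested, called at an adjusted p under 0.05. The biological coefficient of variation was 18.9%. The 9 genes had 54 to 1911 counts in a mouse, and replicates are separate mice. Symbols were found for 55141 identifiers in GENCODE, and upstream sequences come from RefSeq, which held 6 of the 9 genes. Letters searched but not marked were GGTGTG for T-box factors, TGACGTCA for the CRE, CANNTG for the E-box and TATAAA for the TATA box. Correlations used log2 CPM with a prior count of 2.

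The number in the file names, of unstated meaning, was taken to pair mice: in the 4 pairs of groups compared, every same-numbered pair of mice correlated in its deviations from group means at 0.117 or more, and 18 of 19 mice correlated best with their own number (14 of 19 for the number of the titles, which differs for 2 mice). The study's methods name edgeR but state no design. The main fit had no block, and blocked fits are alternatives. Other alternatives were no filter, a filter of 10 counts in every mouse, upper quartile scaling, no TMM, DESeq2 1.42.0 and a sex term. Further ones were the fasted Nt+/+ mouse of disagreeing labels moved to Nt-/-, against its Nts level, only the groups compared, and each mouse left out. The procedure was tested on simulated counts.

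The members and gene lists were chosen with earlier results of these data known. Genes were named by rule: the 9, at most 3 genes of smallest p per list and comparison, level markers, and the 5 genes most like the members in each of 2 measures. The result of 1 gene list is not reported here.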

Additional observations from a re-analysis of the deposited data

Results flagged for a closer look

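Within groups of 4 or 5 mice, 5 of 72 sets of values (9 genes and their ratios by group) held a mouse whose gap to its neighbour exceeded Dixon's 95% critical value, where chance alone gives about 1 in 20. Cd8a was 15.7 CPM in ad libitum-fed Nt-/- replicate 1, the next mouse being at 11.03 CPM. The same mouse had 12.4 CPM of Cd7 against 5.27 CPM in the next. Gzmb was 26.0 CPM in fasted Nt-/- replicate 5 and at most 16.4 CPM in the other 4. Ptprc was 62.3 CPM in fasted Nt+/+ replicate 4, with the next mouse at 32.8 CPM. Ptprc per Cd3e was 8.38 in ad libitum-fed Nt+/+ replicate 1, the library with the high ribosomal RNA share, and at most 3.99 in the rest of its group.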

How the results depend on the processing

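Counts of called members are those at an adjusted p under 0.05 in edgeR's test unless another is named. In Nt-/- mice the 2 calls for fasting became 1 with the replicate block by title number, 0 with the replicate block by file-name number, 0 with sex as a covariate, 0 with the mouse of disagreeing labels as Nt-/-, and 6 with only the groups compared in the fit (0 to 3 without 1 mouse). All genes called in these 5 fits were 31.6%, 31.7%, 23.1%, 22.7% and 23.5%. The mouse of disagreeing labels had 5.43 CPM of Nts, within the Nt+/+ range, so the fit that moves it goes against that level. As the mean of genotypes the 2 calls became 4 with the block by title number (all genes, 45.6%) and 2 to 7 without 1 mouse (all genes, 35.7% to 40.0%): 7 without fasted Nt+/+ replicate 1, 6 without ad libitum-fed Nt+/+ replicate 4, 5 without fasted Nt+/+ replicate 5, and 4 without ad libitum-fed Nt-/- replicate 1. The block changed no call of a member in the other comparisons. DESeq2 also called 2 in Nt-/- mice, and 3 as the mean. The lymphocyte lists, whose alternatives were chosen after the data were seen, had 15 to 32 genes called higher without 1 mouse. Among the numbers in the file names 0 to 2 members were called without 1 mouse, the 2 (Cd8a and Itgae) without ad libitum-fed Nt-/- replicate 1.

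Signs that turned belonged to differences that passed no test. Gzmb as the mean of genotypes was -0.000594 with sex as a covariate, and from -0.11 to 0.28 without 1 mouse. Ptprc in Nt+/+ mice was 0.028 with the mouse of disagreeing labels as Nt-/-, and from -0.39 to 0.070 without 1 mouse. Without 1 mouse Gzmb in Nt+/+ mice was -0.48 to 0.21, Cd3g in Nt+/+ mice -0.048 to 0.63, and Ptprc as the mean -0.058 to 0.17. The causes were not tested. The fit of sex with the file-name number as a block could not be made, since sex follows that number. With 4 or 5 mice in a group the SEs in 1 genotype were 0.25 to 0.46, and in Nt-/- mice differences of 1.75-fold (Cd8a) and 2.01-fold (Cd7) were not called.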
